A study of Mus musculus with 6 samples.

Results

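The genes described here are 41 genes for making ribosomes: subunits and factors of RNA polymerase I, core proteins of the small nucleolar ribonucleoproteins (snoRNPs), nucleolar processing, assembly and export factors, and the transcription factor gene Myc. They were chosen by name as rows of the deposited count table, which holds 54532 genes, and all 41 were among the 16844 genes with enough counts to be tested. The RNA came from 6 libraries labelled NIT-1, a line from an insulin-producing tumour of a NOD mouse carrying the SV40 large T antigen under an insulin promoter. In 3 libraries (EV_Tm) the cells had been given extracellular vesicles (hucMSC-EVs, from mesenchymal stem cells of the human umbilical cord) over 16 h, in the other 3 (PBS_Tm) they had been given PBS, and all 6 were then exposed to Tm over 8 h. Tm is read here as tunicamycin, which blocks N-linked glycosylation and causes endoplasmic reticulum stress. A treatment label of the PBS_Tm samples reads as untreated, while the series' design text places them in the Tm arm, and that text was followed. Whether the samples of a group are separate cultures is not in the labels, and the p-values rest on the spread between these samples alone, which may be technical.

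Ribosomes are built in the nucleolus. RNA polymerase I copies the ribosomal DNA into a long precursor, snoRNPs guide its chemical modification, and the processome and later factors fold, cut and export the small and large subunits. Transcription by polymerase I and the genes for its processing factors follow growth signals, with MYC among their known activators, and they are commonly held back when translation is limited by stress. Secretory cells, the beta cell among them, depend on this supply for their protein output.

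On balance the genes were lower in EV_Tm than in PBS_Tm. Of the 41, 26 fell, 4 rose and 11 did not pass the test (edgeR quasi-likelihood, two-sided, Benjamini-Hochberg adjusted p under 0.05 over all genes tested). Among all genes tested 47.4% were called, 24.7% lower and 22.6% higher. The median log2 fold change, EV_Tm minus PBS_Tm, was -0.19 over the 41 genes and 0.01 over all genes tested. These values for all genes include genes that do not code for proteins. Among protein-coding genes of 3000 to 6000 bases, the range that holds 19 of the 41, 31.4% were called lower and 24.1% higher. The median log2 fold change of that range was -0.04. The changes were small, from -0.72 for Rrp12 to 1.01 for Nop10, and Nop10 was the one gene of the 41 with a fold of 2 or more. In bulk RNA, fewer cells of a type and less RNA per cell cannot be told apart.

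The values of the EV_Tm libraries lay wholly below those of the PBS_Tm libraries for 24 of the 41 genes and wholly above them for 4. Among all genes tested, EV_Tm lay wholly below in 27.9% and wholly above in 26.6%. Added together, the 41 genes took 0.678%, 0.708% and 0.703% of all counts in the PBS_Tm libraries and 0.644%, 0.625% and 0.624% in the EV_Tm libraries, so the groups did not overlap. Each gene had between 373 and 34454 counts in a library.

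**Figure D1:**
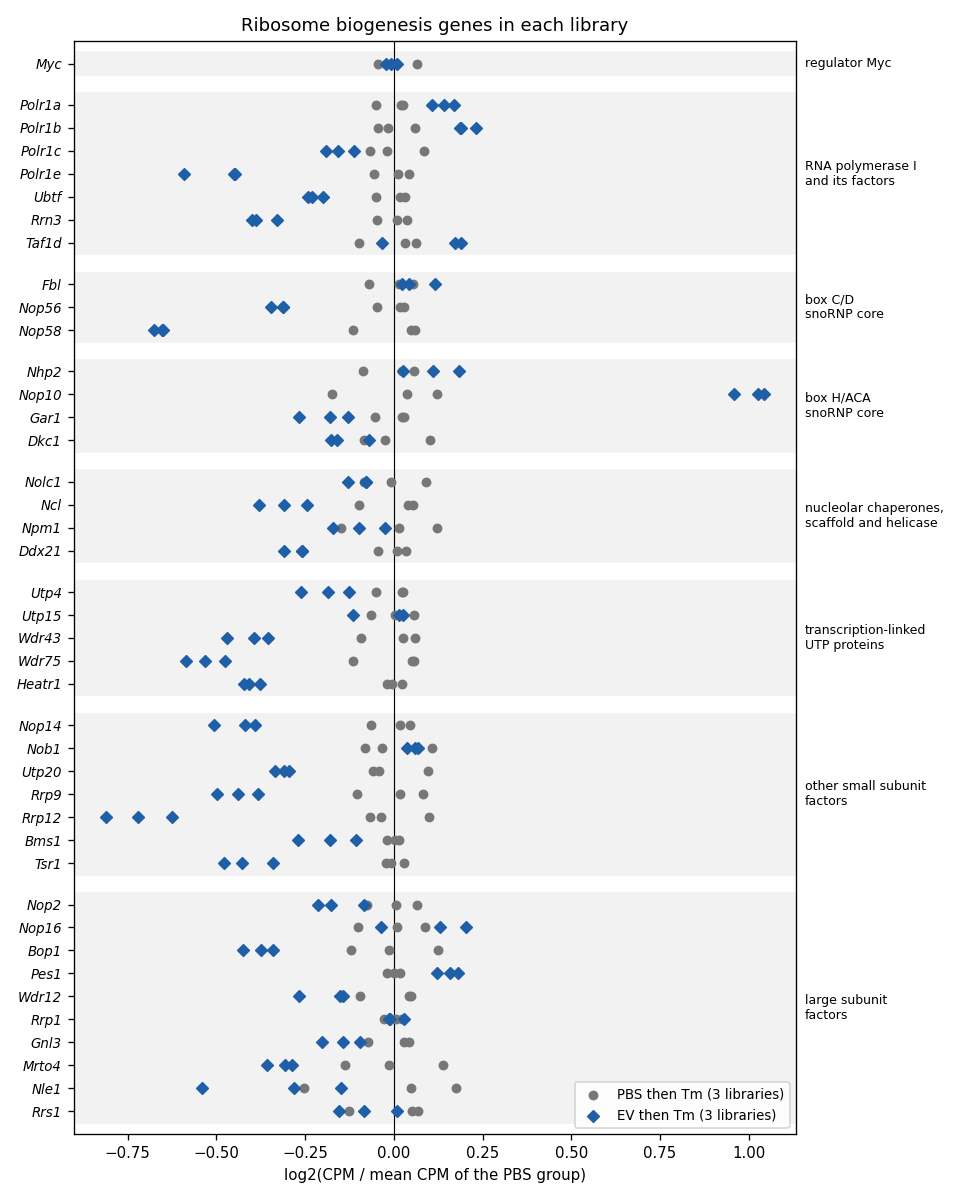
Each point is 1 library: the log2 of its CPM (counts scaled to library size) over the mean CPM of the PBS_Tm group, for the 41 genes in rows grouped by role, with circles for the 3 PBS_Tm and diamonds for the 3 EV_Tm libraries. The diamonds lie wholly to the left of the circles for 24 genes and wholly to the right for 4, and Nop10 stands farthest to the right.

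The libraries held 28654248 to 32550268 counts, and the first principal component, with 55.4% of the variance, separated the groups. The labelled beta-cell identity was not borne out by its markers: of 15 beta-cell markers none had enough counts to be tested and 8 were at 0 in all 6 libraries, among them Ins2, Iapp, Pdx1 and Nkx6-1, with a summed level of 0.391 to 1.05 CPM in PBS_Tm and 0.378 to 1.26 in EV_Tm. Marker lists of other cells had most of their level in 1 or a few genes. Of 8 exocrine and duct markers 2 were tested and 4, Cpa1, Amy2a2, Ptf1a and Krt19, were at 0, while the sum, mostly Sox9, was 84.6 to 93.0 CPM in PBS_Tm and 113 to 116 in EV_Tm. The sum of 9 mesenchymal markers, of which Acta2 was at 0, was 22.3 to 23.6 CPM in PBS_Tm and 17.7 to 20.5 in EV_Tm. The 7 leukocyte markers, none at 0 in all libraries and Cd68 the highest, summed to 2.83 to 4.65 CPM in PBS_Tm and 4.84 to 6.74 in EV_Tm. For 5 endothelial markers, Kdr and Emcn at 0, the sums were 31.2 to 33.5 CPM and 29.5 to 31.2 CPM, and for 7 markers of other islet cells, Sst and Irx2 at 0, they were 22.0 to 24.9 CPM and 20.3 to 21.1 CPM. The groups did not overlap in any of these 5 sums outside the beta-cell list, though the endothelial sums came as close as 31.24 and 31.17 CPM. Single markers went both ways. Of 4 mesenchymal markers tested 1 was called higher and 2 lower. The 3 tested markers of other islet cells had a median log2 fold change of 0.26, although their list's sum was lower. Among all genes tested, EV_Tm lay wholly below in 27.9% and wholly above in 26.6%. The part of these lists in the results below was not tested.

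The E-box, the 6-base site bound by MYC and related factors, is shown first because Myc is among the genes. RefSeq promoter windows (GRCm38.p6, 250 bases before to 50 bases after a transcription start) were found for 35 of the 41 genes, not for Myc, Fbl, Npm1, Rrp12, Bop1 and Rrs1. CACGTG, which reads the same on both strands, was in a window of 8 of these 35 genes (22.9%) and of 8.09% of the 27025 genes with a window. Those 27025 genes were not limited to the genes tested here. The 8 were Rrn3, with 2 matches, and Nop2, Pes1, Nle1, Tsr1, Utp4, Utp20 and Wdr43, with 1 each. By number of windows, 19.0% of 42 windows of the 35 genes and 7.15% of all 32851 windows of the same length held it. A match is a description of the letters and not evidence of binding. Windows of 4 of these genes are printed with the E-box in capitals, 3 of genes that fell and that of Pes1, which rose; those of Nop58 and Nop10, which fell and rose most among the genes with a window, hold no match and are printed in lower case throughout.
Rrn3 (chr16:13780449-13780748, plus strand): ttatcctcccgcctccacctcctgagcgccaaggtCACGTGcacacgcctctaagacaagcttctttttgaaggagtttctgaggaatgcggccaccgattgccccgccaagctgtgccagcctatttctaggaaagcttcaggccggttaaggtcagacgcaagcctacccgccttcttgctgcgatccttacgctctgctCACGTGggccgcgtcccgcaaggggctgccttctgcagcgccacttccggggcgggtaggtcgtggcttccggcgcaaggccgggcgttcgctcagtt
Wdr43 (chr17:71615965-71616264, plus strand): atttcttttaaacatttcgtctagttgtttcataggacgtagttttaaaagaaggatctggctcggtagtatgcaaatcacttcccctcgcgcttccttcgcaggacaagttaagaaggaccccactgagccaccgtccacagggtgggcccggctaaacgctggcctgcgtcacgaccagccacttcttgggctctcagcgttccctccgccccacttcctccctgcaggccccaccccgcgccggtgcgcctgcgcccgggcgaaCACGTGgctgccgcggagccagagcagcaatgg
Utp20 (chr10:88826765-88827064, minus strand): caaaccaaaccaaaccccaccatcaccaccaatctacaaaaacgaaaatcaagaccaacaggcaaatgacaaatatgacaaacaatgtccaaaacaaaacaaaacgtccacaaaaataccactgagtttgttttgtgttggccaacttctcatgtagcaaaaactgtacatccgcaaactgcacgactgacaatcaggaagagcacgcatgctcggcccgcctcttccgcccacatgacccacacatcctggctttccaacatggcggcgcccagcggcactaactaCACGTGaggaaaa
Pes1 (chr11:3963725-3964024, plus strand): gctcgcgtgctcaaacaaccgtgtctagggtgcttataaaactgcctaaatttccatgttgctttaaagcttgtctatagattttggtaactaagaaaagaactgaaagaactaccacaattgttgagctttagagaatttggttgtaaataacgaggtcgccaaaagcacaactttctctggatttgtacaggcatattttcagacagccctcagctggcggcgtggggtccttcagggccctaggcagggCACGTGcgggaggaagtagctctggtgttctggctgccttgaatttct
Nop58 (chr1:59684756-59685055, plus strand): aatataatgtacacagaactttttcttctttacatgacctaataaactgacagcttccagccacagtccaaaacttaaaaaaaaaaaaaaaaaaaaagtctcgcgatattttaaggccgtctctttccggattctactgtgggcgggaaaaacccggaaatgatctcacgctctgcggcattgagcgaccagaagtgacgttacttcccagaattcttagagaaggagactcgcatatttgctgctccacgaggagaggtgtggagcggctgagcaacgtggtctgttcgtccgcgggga
Nop10 (chr2:112261676-112261975, plus strand): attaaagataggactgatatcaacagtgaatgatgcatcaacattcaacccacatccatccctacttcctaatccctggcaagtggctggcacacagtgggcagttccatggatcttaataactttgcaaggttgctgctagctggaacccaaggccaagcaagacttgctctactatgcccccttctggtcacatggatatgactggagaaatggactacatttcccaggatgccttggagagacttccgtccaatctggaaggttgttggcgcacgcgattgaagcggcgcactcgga

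In Rrn3 the first base of the E-box lay 215 and 48 bases before the start, in Nop2 60 before it, and in the other 6 genes between bases 3 and 38 after it. Of the 8 genes with a match 7 fell and Pes1 rose, with a median log2 fold change of -0.31. Of the 27 without one 17 fell and 3 rose, with a median of -0.18. The ranges overlapped, from -0.41 to 0.15 with a match and from -0.66 to 1.01 without. Of all genes tested 24.7% fell and 22.6% rose, and these were not split by the E-box. The part of the E-box in the fold changes was not tested. CG was in all 42 windows and in 94.6% of the 32851 windows, with a median of 22 per window against 7. CACGTG itself holds a CG, and the part of CG content in its matches was not tested. Another promoter site, CCAAT, was in a window of 31.4% of the 35 genes and of 41.1% of the 27025.

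Myc did not pass the test. Myc (chromosome 15, 61985391 to 61990374, coordinates of the deposited table, GRCm38), whose protein drives genes of growth and ribosome production, was at 224, 221 and 238 CPM in PBS_Tm and at 224, 226 and 229 CPM in EV_Tm. All 3 EV_Tm values lay within the range of the PBS_Tm values. The log2 fold change was -0.01 with a 95% interval of -0.09 to 0.08 (edgeR adjusted p = 0.899), which leaves room for a change of either sign within those bounds. Its level per length of gene model, the third highest of the 41 genes in PBS_Tm and the second highest in EV_Tm, was 83.7 ± 3.35 CPM per kb with PBS against 83.3 ± 0.851 with vesicles (SD, n = 3 each).

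Of 14 genes listed as the extended Myc network, some of which bind MYC, compete with it or control its turnover, 12 were tested. Mycn and Mycl were at 0 counts in all libraries. Of the 12 genes tested 3 rose and 4 fell. Those are 25.0% and 33.3% of the genes tested on this list, against 22.6% and 24.7% of all genes tested. Max, the partner through which MYC binds DNA, was 1.40-fold lower (log2 fold change -0.48 ± 0.06 (SE), edgeR adjusted p = 1.87e-07). Genes of 2 antagonists that also pair with MAX rose: Mxi1 was 1.36-fold higher, and Mxd3, at 2.58 ± 0.711 CPM with PBS against 4.27 ± 0.315 with vesicles (SD, n = 3 each), was 1.65-fold higher. Of 26 genes outside the ribosome that are known as MYC targets, 12 rose and 6 fell, 46.2% and 23.1%. The transferrin receptor gene Tfrc was 2.41-fold higher and the cyclin gene Ccnd1 1.56-fold higher, while Srm, the spermidine synthase, was 2.10-fold lower. Their median log2 fold change was 0.06.

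Subunits of RNA polymerase I went both ways, and of the promoter factors Ubtf and Rrn3 fell. Of the 7 genes Polr1a and Polr1b rose, Polr1c, Polr1e, Ubtf and Rrn3 fell, and Taf1d did not pass (median -0.15). Polr1a and Polr1b encode the catalytic core, and their levels were 1.10-fold and 1.15-fold higher with vesicles. Polr1a was at 302, 286 and 301 CPM in PBS_Tm and at 333, 327 and 319 CPM in EV_Tm, with every EV_Tm library above every PBS_Tm library (log2 fold change 0.14 ± 0.04 (SE), edgeR adjusted p = 0.00473). Polr1b had a log2 fold change 0.20 ± 0.05 (SE), edgeR adjusted p = 9.32e-04.

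Polr1e (chromosome 4, 45018583 to 45036565), a peripheral subunit that joins the enzyme for initiation and elongation, had the largest fall of the 7. It was at 24.8, 25.4 and 23.7 CPM in PBS_Tm and at 18.1, 18.1 and 16.4 CPM in EV_Tm, without overlap of the groups (log2 fold change -0.50 ± 0.08 (SE), edgeR adjusted p = 2.13e-05). Rrn3 (chromosome 16, 13780708 to 13814839), whose protein links the polymerase to the promoter-bound factors and is a known control point for growth and stress signals, was at 104, 106 and 99.6 CPM in PBS_Tm and at 82.04, 78.1 and 78.7 CPM in EV_Tm. That is a 1.29-fold lower level, again without overlap (log2 fold change -0.37 ± 0.05 (SE), edgeR adjusted p = 5.84e-07). Ubtf (chromosome 11, 102304560 to 102319742), the factor that coats active ribosomal DNA, had the highest level per length of the 7 and was at 248, 245 and 234 CPM in PBS_Tm and at 207, 211 and 205 CPM in EV_Tm, 1.17-fold lower (log2 fold change -0.22 ± 0.04 (SE), edgeR adjusted p = 5.88e-05).

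Polr1c, a subunit shared with RNA polymerase III, was at 49.99 ± 2.72 CPM with PBS against 44.95 ± 1.24 with vesicles (SD, n = 3 each; log2 fold change -0.15 ± 0.06 (SE), edgeR adjusted p = 0.0430). Its call was lost in several ways, with an adjusted p of 0.0511 without PBS_Tm replicate 1, 0.168 without PBS_Tm replicate 2, 0.0924 without EV_Tm replicate 2 and 0.147 without EV_Tm replicate 3, of 0.134 with library size alone, 0.0634 with the replicate number as a block, 0.0555 with a filter of 1 CPM in 3 libraries, 0.0512 by the DESeq2 test and 0.106 among protein-coding genes only. Taf1d, part of the promoter selectivity factor, was at 69.7, 76.3 and 77.9 CPM in PBS_Tm and at 85.1, 73.00 and 84.04 CPM in EV_Tm, with overlapping groups. Its log2 fold change was 0.11 with a 95% interval of -0.01 to 0.24, and it passed with an adjusted p of 0.0290 without EV_Tm replicate 2, of 0.0376 with library size alone and of 0.0312 among protein-coding genes only. The ratio of Rrn3 to Polr1a CPM was 0.343, 0.369 and 0.331 in PBS_Tm and 0.246, 0.239 and 0.247 in EV_Tm, so less Rrn3 RNA was present per Polr1a RNA in every EV_Tm library.

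Of 14 further polymerase I genes 5 rose and 2 fell, 35.7% and 14.3% (median 0.13). Polr2l, a small subunit common to all 3 nuclear polymerases, was 1.56-fold higher, and Polr1d, which pairs with POLR1C, 1.40-fold higher (log2 fold change 0.49 ± 0.07 (SE), edgeR adjusted p = 3.38e-06). Taf1b, of the selectivity factor, was 1.31-fold lower. Of 22 genes of RNA polymerase III, which makes the smallest ribosomal RNA and the transfer RNAs, 3 rose and 7 fell (median -0.08). Those are 13.6% and 31.8%, against 22.6% and 24.7% of all genes tested. Its subunit genes Crcp, Polr3e and Polr3c were 1.74-fold, 1.56-fold and 1.47-fold lower.

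**Figure D2:**
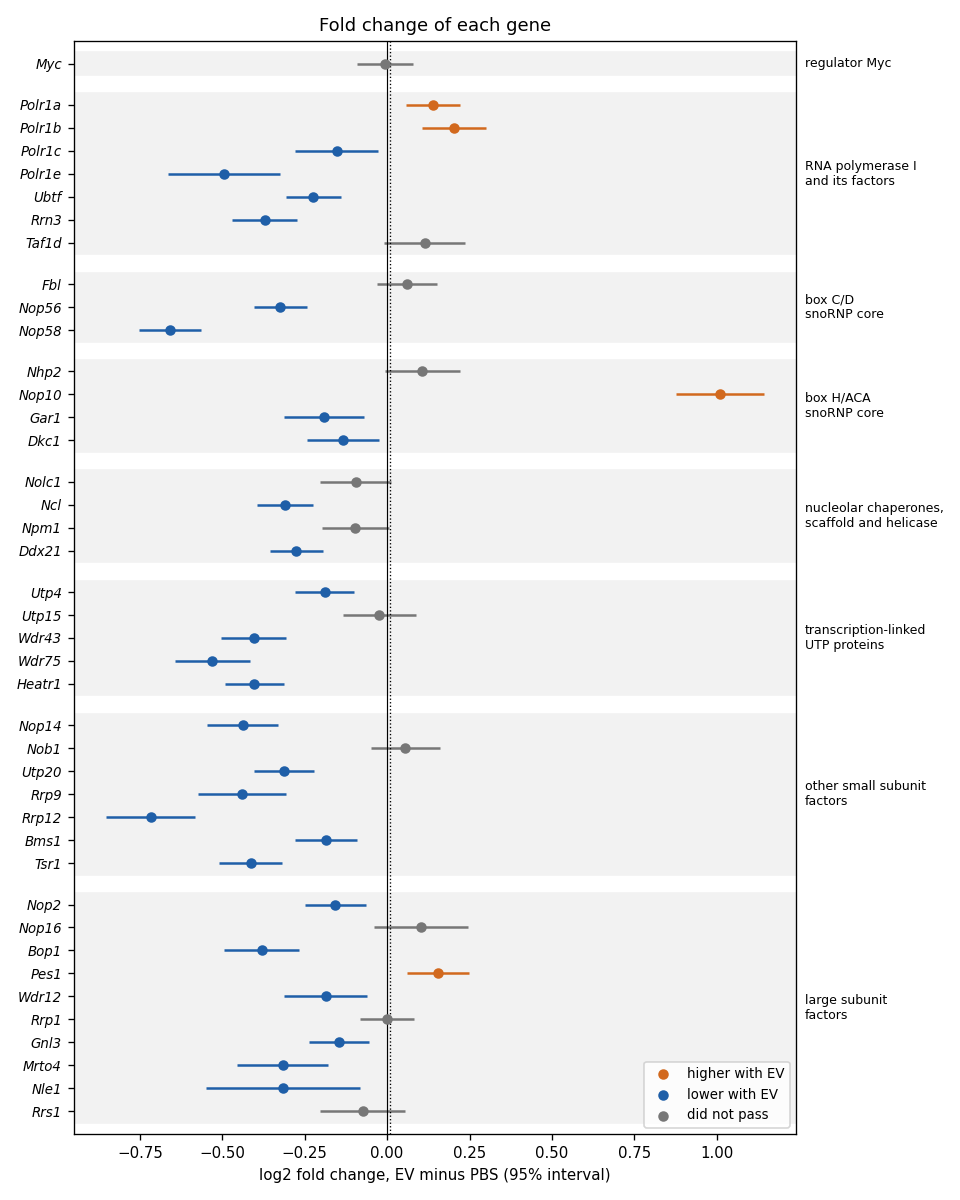
Points give the log2 fold change, EV_Tm minus PBS_Tm, of each of the 41 genes with its 95% interval as a line, coloured by the call, and the dotted line marks the median of all genes tested (0.01). Of the 12 small subunit genes 10 lie to the left with intervals that do not reach 0, while the polymerase I and box H/ACA genes lie on both sides.

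The core proteins of the box C/D snoRNPs, which carry out ribose methylation of ribosomal RNA, were unequal. Nop58 and Nop56 fell and Fbl did not pass. Nop58 (chromosome 1, 59684971 to 59719044), a scaffold protein, was at 273, 308 and 306 CPM in PBS_Tm and at 188, 185 and 189 CPM in EV_Tm. The highest EV_Tm library was far below the lowest PBS_Tm library, a 1.58-fold lower level (log2 fold change -0.66 ± 0.05 (SE), edgeR adjusted p = 9.27e-12). Its paralogue Nop56 (chromosome 2, 130274430 to 130279313) was at 291, 304 and 306 CPM in PBS_Tm and at 242, 242 and 236 CPM in EV_Tm, 1.25-fold lower and without overlap (log2 fold change -0.32 ± 0.04 (SE), edgeR adjusted p = 2.17e-07). Fbl, the methyltransferase fibrillarin, was at 192, 186 and 176 CPM in PBS_Tm and at 200.1, 190.3 and 188 CPM in EV_Tm, with overlapping groups and a 95% interval of -0.03 to 0.15 for its log2 fold change of 0.06. The ratio of Nop58 to Fbl CPM was 1.42, 1.65 and 1.74 in PBS_Tm and 0.940, 0.974 and 1.004 in EV_Tm.

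The box H/ACA proteins, which turn uridine into pseudouridine and also belong to telomerase, held the largest rise of the 41 genes. Nop10 (chromosome 2, 112261926 to 112263269), the smallest protein of the complex, was at 42.9, 45.4 and 36.99 CPM in PBS_Tm and at 81.1, 85.1 and 85.96 CPM in EV_Tm. Each EV_Tm library was close to double the PBS_Tm mean, a 2.01-fold higher level (log2 fold change 1.01 ± 0.06 (SE), edgeR adjusted p = 2.10e-12). Gar1 was at 55.4, 58.5 and 58.6 CPM in PBS_Tm and at 50.8, 52.6 and 47.7 CPM in EV_Tm, without overlap but by a narrow margin (log2 fold change -0.19 ± 0.06 (SE), edgeR adjusted p = 0.00847), and the call was lost with an adjusted p of 0.0677 without EV_Tm replicate 3.

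Dkc1, the pseudouridine synthase dyskerin, was at 91.6, 104 and 95.5 CPM in PBS_Tm and at 92.5, 86.97 and 86.00 CPM in EV_Tm. One EV_Tm library lay inside the PBS_Tm range (log2 fold change -0.13 ± 0.05 (SE), edgeR adjusted p = 0.0396). The Dkc1 call was lost with an adjusted p of 0.202 without PBS_Tm replicate 2, 0.115 without EV_Tm replicate 2 and 0.159 without EV_Tm replicate 3, of 0.147 with library size alone, 0.0558 with the replicate number as a block, 0.0565 with a filter of 1 CPM in 3 libraries, 0.0530 by the DESeq2 test and 0.114 among protein-coding genes only. Nhp2, an RNA-binding subunit with the highest mean level per length of the 4 over the 6 libraries, was at 75.95, 74.2 and 68.7 CPM in PBS_Tm and at 74.2, 82.8 and 78.7 CPM in EV_Tm. Its groups overlapped, with a log2 fold change of 0.11 (95% interval -0.01 to 0.22, edgeR adjusted p = 0.115), and it passed with library size alone (adjusted p = 0.0299) and among protein-coding genes only (0.0247). The ratio of Nop10 to Dkc1 CPM was 0.468, 0.435 and 0.387 in PBS_Tm and 0.877, 0.978 and 0.9996 in EV_Tm.

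Nop10 is also the shortest gene model of the 41, at 1109 bases, and fold change moved with gene length over the protein-coding genes tested. Protein-coding genes under 1500 bases had a median log2 fold change of 0.15 and 11.6% of them were called lower, while genes of 6000 bases or more had a median of -0.08 and 38.7% were called lower. In each length range the share of the 41 genes called lower was 0 of 2 under 1500 bases, 7 of 11 from 1500 to 3000 (25.2% of all protein-coding genes there), 12 of 19 from 3000 to 6000 (31.4%) and 7 of 9 above. The part of length in these results was not tested beyond these values. The table lists 1 pseudogene described as a copy of Nop10, with 50 counts over the 6 libraries against 11684 of Nop10, and how reads that match both were counted is not given in the sources used here.

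**Figure D3:**
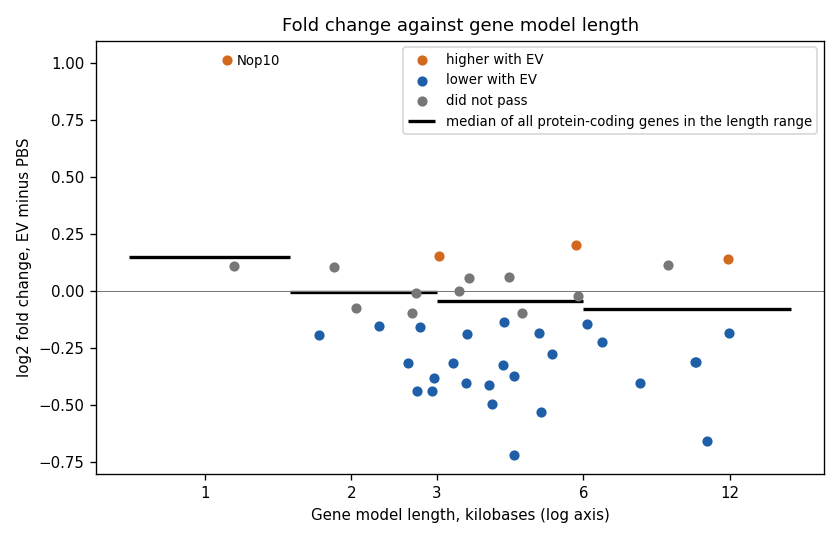
Each point is 1 of the 41 genes, with gene model length in kilobases on a log axis and the log2 fold change on the other, and bars mark the median of all protein-coding genes in 4 length ranges (from 0.15 under 1500 bases to -0.08 from 6000). Of the 41 points 31 lie below the bar of their range, and Nop10 lies far above its own.

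**Figure D4:**
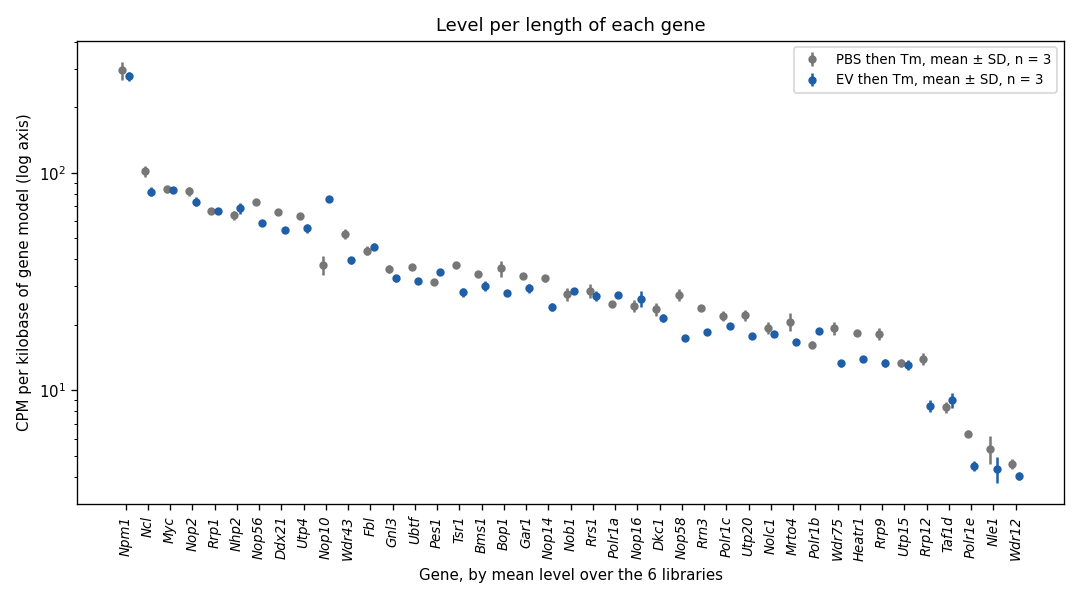
Mean CPM per kilobase of gene model ± SD (n = 3) in PBS_Tm and EV_Tm on a log axis, with the 41 genes ordered by their mean level over the 6 libraries. Npm1 is the highest and Wdr12 the lowest, and Nop10 is the gene whose 2 groups lie farthest apart.

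Among the abundant nucleolar proteins Ncl and Ddx21 fell, and Npm1 and Nolc1 did not pass. Ncl (chromosome 1, 86344719 to 86359400), nucleolin, a chaperone of nascent ribosomal RNA, was at 965, 1060.2 and 1072 CPM in PBS_Tm and at 871, 833 and 794 CPM in EV_Tm. All EV_Tm values lay below the PBS_Tm values (log2 fold change -0.31 ± 0.04 (SE), edgeR adjusted p = 8.97e-07). Ddx21, an RNA helicase that works with both polymerase I and snoRNAs, was at 329.9, 342 and 348 CPM in PBS_Tm and at 284, 284 and 274 CPM in EV_Tm, also without overlap (log2 fold change -0.28 ± 0.04 (SE), edgeR adjusted p = 2.16e-06).

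Npm1, nucleophosmin, which forms the granular part of the nucleolus, had the highest level per length of the 41 genes, at 296 ± 27.9 CPM per kb with PBS against 277 ± 13.99 with vesicles (SD, n = 3 each). By library it was at 711, 858 and 796 CPM in PBS_Tm and at 775, 701 and 737 CPM in EV_Tm. The groups overlapped because the lowest PBS_Tm library lay among the EV_Tm values, and the log2 fold change was -0.10 (95% interval -0.20 to 0.01, edgeR adjusted p = 0.118). It passed with an adjusted p of 0.00208 without PBS_Tm replicate 1 and of 0.0134 with no filter on low counts. Nolc1, a scaffold of snoRNPs, had a log2 fold change of -0.10 (95% interval -0.20 to 0.01) and passed with an adjusted p of 0.0390 without PBS_Tm replicate 2.

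Most factors of the small subunit fell: 10 of the 12 were called lower, none was called higher, and Utp15 and Nob1 did not pass. Their median log2 fold change was -0.40. The share called lower was 83.3%, while 24.7% of all genes tested were called lower and 22.6% higher. Summed over the 12 genes the level was 1525, 1562 and 1569 CPM in PBS_Tm and 1297, 1247 and 1229.6 CPM in EV_Tm. The lowest PBS_Tm library was above the highest EV_Tm library.

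Of these, 5 genes encode the UTP proteins that bind the precursor first and are linked to its transcription. Of the 5, 4 fell, against 24.7% of all genes tested. Wdr75 (chromosome 1, 45795166 to 45823619) was at 87.1, 97.7 and 98.2 CPM in PBS_Tm and at 67.8, 65.2 and 62.9 CPM in EV_Tm, a 1.45-fold lower level (log2 fold change -0.53 ± 0.05 (SE), edgeR adjusted p = 1.56e-08). Wdr43 (chromosome 17, 71616215 to 71659031) was at 169.8, 184 and 189 CPM in PBS_Tm and at 141, 131 and 138 CPM in EV_Tm (log2 fold change -0.41 ± 0.05 (SE), edgeR adjusted p = 1.11e-07). In both the groups lay well apart. Heatr1 (chromosome 13, 12395027 to 12440289), a large scaffold protein of this subcomplex, was at 143, 142 and 146 CPM in PBS_Tm and at 108, 107 and 110.4 CPM in EV_Tm, with less than 5 CPM between replicates of a group (log2 fold change -0.40 ± 0.04 (SE), edgeR adjusted p = 3.10e-08). Utp4, the most abundant of the 5 per length, was at 223, 223 and 212 CPM in PBS_Tm and at 201, 193 and 183 CPM in EV_Tm, 1.14-fold lower (log2 fold change -0.19 ± 0.04 (SE), edgeR adjusted p = 8.27e-04). Utp15 was at 74.5, 78.2 and 81.1 CPM in PBS_Tm and at 79.3, 78.7 and 71.99 CPM in EV_Tm, with overlapping groups and a 95% interval of -0.13 to 0.09 for its log2 fold change of -0.02.

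Among the 7 later or other small subunit factors 6 fell, against 24.7% of all genes tested. Rrp12 (chromosome 19, 41862852 to 41896153), which acts in the export of both subunits, had the largest fall of the 41 genes. It was at 64.7, 57.7 and 58.9 CPM in PBS_Tm and at 39.2, 36.6 and 34.5 CPM in EV_Tm, so every EV_Tm library was below 40 CPM and every PBS_Tm library above 57 (log2 fold change -0.72 ± 0.07 (SE), edgeR adjusted p = 1.62e-09). Rrp9 (chromosome 9, 106475963 to 106485424), which binds the snoRNA that pairs with the precursor in the processome, was at 56.2, 53.8 and 49.4 CPM in PBS_Tm and at 40.7, 39.2 and 37.6 CPM in EV_Tm (log2 fold change -0.44 ± 0.06 (SE), edgeR adjusted p = 3.34e-06). Nop14 (chromosome 5, 34638536 to 34660148), a processome protein, was at 85.3, 90.2 and 92.02 CPM in PBS_Tm and at 67.97, 62.8 and 66.6 CPM in EV_Tm (log2 fold change -0.44 ± 0.05 (SE), edgeR adjusted p = 1.51e-07). All 3 were without overlap.

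Tsr1 (chromosome 11, 74898071 to 74909342), a factor of late small subunit precursors in the cytoplasm, had the highest mean level per length of these 7 over the 6 libraries, though not in EV_Tm alone, where Bms1 and Nob1 were higher, and was at 143, 147 and 142 CPM in PBS_Tm and at 114, 103 and 107 CPM in EV_Tm, 1.33-fold lower (log2 fold change -0.41 ± 0.05 (SE), edgeR adjusted p = 5.60e-08). It shares 1240 bases, 32.3% of its exons in GENCODE M21, with Srr on the opposite strand, and since the strand setting is not given, reads there cannot be assigned. Srr had 2751 counts over all libraries against 23555 of Tsr1. Opposite-strand genes that were themselves called shared 1.98% of the exon bases of Heatr1 (Lgals8), 1.69% of Bop1 (Mroh1) and 1.56% of Polr1a (Gm26628). Rrp9 shared 0.682% with Parp3 and Gnl3 0.246% with Pbrm1. Mroh1 had 45651 counts against 17723 of Bop1. All but Parp3 changed in the same direction as the gene they overlap. The part of these overlaps in the calls was not tested. Utp20 and the GTPase gene Bms1 fell by 0.31 and 0.18 on the log2 scale (edgeR adjusted p = 2.27e-06 and 0.00160). Nob1, the nuclease that makes the final cut of the small ribosomal RNA, was at 94.3, 104 and 91.2 CPM in PBS_Tm and at 98.99, 101 and 100.5 CPM in EV_Tm, with a log2 fold change of 0.05 (95% interval -0.05 to 0.16).

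Large subunit factors were also lower on balance. Of 10 genes 6 fell, Pes1 rose, and Nop16, Rrp1 and Rrs1 did not pass (median -0.15). The 3 partners of the PeBoW complex, which is needed to mature the large ribosomal RNA, were split. Bop1 (chromosome 15, 76452989 to 76477277) was at 117, 106 and 98.8 CPM in PBS_Tm and at 79.98, 82.8 and 84.7 CPM in EV_Tm, 1.30-fold lower and without overlap (log2 fold change -0.38 ± 0.06 (SE), edgeR adjusted p = 3.18e-06). Pes1 was at 96.5, 94.1 and 95.4 CPM in PBS_Tm and at 108, 106 and 104 CPM in EV_Tm, 1.11-fold higher and without overlap (log2 fold change 0.15 ± 0.05 (SE), edgeR adjusted p = 0.00688). Wdr12 was at 55.00 ± 3.06 CPM with PBS against 48.3 ± 2.26 with vesicles (SD, n = 3 each; log2 fold change -0.19 ± 0.06 (SE), edgeR adjusted p = 0.0141), a call lost with an adjusted p of 0.0969 without EV_Tm replicate 3 and of 0.0507 with library size alone. The ratio of Bop1 to Pes1 CPM was 1.21, 1.13 and 1.04 in PBS_Tm and 0.740, 0.777 and 0.817 in EV_Tm.

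Mrto4, a relative of a ribosomal stalk protein that holds its place during assembly, was at 59.4, 53.4 and 49.1 CPM in PBS_Tm and at 44.2, 42.1 and 43.6 CPM in EV_Tm (log2 fold change -0.32 ± 0.07 (SE), edgeR adjusted p = 3.33e-04), without overlap. A pseudogene copy, Mrto4-ps1, had 531 counts over the 6 libraries against 9084 of Mrto4. Nle1, a WD-repeat factor of large subunit maturation, had the fewest counts of the 41 genes and was at 19.7, 18.03 and 14.6 CPM in PBS_Tm and at 11.98, 15.7 and 14.3 CPM in EV_Tm. Its groups overlapped (log2 fold change -0.32 ± 0.11 (SE), edgeR adjusted p = 0.0240), and the call was lost with an adjusted p of 0.151 without PBS_Tm replicate 1, 0.0661 without PBS_Tm replicate 2, 0.149 without EV_Tm replicate 1 and 0.0509 without EV_Tm replicate 3. Nop2, an RNA methyltransferase with the highest level per length of the 10, was at 238, 228 and 216 CPM in PBS_Tm and at 196, 201 and 214 CPM in EV_Tm, 1.12-fold lower (log2 fold change -0.16 ± 0.05 (SE), edgeR adjusted p = 0.00559). The gap between the groups of Nop2 was under 2 CPM.

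Gnl3, the nucleolar GTPase nucleostemin, fell by 0.15 on the log2 scale (edgeR adjusted p = 0.00746), and the call was lost with an adjusted p of 0.0608 without EV_Tm replicate 2. Rrp1 had a log2 fold change of 0.00 with a 95% interval of -0.08 to 0.08, Nop16 one of 0.10 (-0.04 to 0.24) and the assembly factor Rrs1 one of -0.07 (-0.20 to 0.05). None of these intervals excludes a small change.

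Across the ratios computed within complexes the groups were apart in each of 8 pairs, Nop58 to Fbl, Nop56 to Fbl, Nop10 to Dkc1, Rrn3 to Polr1a, Polr1b to Polr1e, Heatr1 to Utp15, Bop1 to Pes1 and Wdr12 to Pes1. The exact two-sided permutation test gave p = 0.1 for each (0.1 adjusted over the 8), the smallest value that 3 libraries against 3 can give. The pairs were picked with the fold changes known, so the ratios are a description.

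Other genes of ribosome assembly, from lists of 151 genes outside the 41, were also more often lower than higher. Of 150 tested, 64 fell and 20 rose, 42.7% and 13.3%, with a median log2 fold change of -0.12. Among all genes tested 24.7% fell and 22.6% rose. Of 52 other small subunit factors 25 fell and 4 rose, 48.1% and 7.69% (median -0.16). Ngdn was at 78.3 ± 4.18 CPM with PBS against 37.6 ± 0.939 with vesicles (SD, n = 3 each), a 2.08-fold lower level (log2 fold change -1.06 ± 0.06 (SE), edgeR adjusted p = 1.37e-13), Ltv1, which is released late from the small subunit, was 1.72-fold lower and Mphosph10, a processome core protein, 1.48-fold lower.

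Of 57 other large subunit factors 56 were tested, 25 fell and 8 rose, 44.6% and 14.3% against 24.7% and 22.6% of all genes tested (median -0.11). Afg2a, listed in the table under its older symbol Spata5, an ATPase that recycles assembly factors, was 2.08-fold lower, Tma16 2.07-fold lower, and Nmd3, the adaptor for export of the large subunit, 1.58-fold lower (log2 fold change -0.66 ± 0.05 (SE), edgeR adjusted p = 1.56e-10). Among 17 genes of the nuclear exosome and precursor trimming 7 fell and Exosc5 rose, 41.2% and 5.88% (median -0.14). The nuclease gene Dis3 was 1.67-fold lower, Mphosph6 1.37-fold lower, and Exosc5 1.39-fold higher.

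Of 11 further snoRNP and assembly genes 5 fell and 2 rose, 45.5% and 18.2% against 24.7% and 22.6% of all genes tested (median 0.01). Znhit6 and Nufip1, both needed to assemble box C/D particles, were 1.35-fold and 1.33-fold lower, and Shq1, a chaperone of dyskerin, was 1.26-fold higher. The count of 5 lower fell to 2 with library size alone, to 3 without PBS_Tm replicate 1, to 2 without EV_Tm replicate 1 and to 3 without EV_Tm replicate 2 or 3.

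Genes for proteins of the finished ribosome were mostly higher in EV_Tm. Of 86 genes named as cytosolic ribosomal proteins or their paralogues, taken by symbol, 84 were tested, 56 rose and 2, Rps27a and the paralogue Rpl36al, fell, with a median log2 fold change of 0.17. Those are 66.7% and 2.38%, against 22.6% and 24.7% of all genes tested. Rpl37a was 2.05-fold higher, at 152 ± 18.7 CPM with PBS against 312 ± 10.8 with vesicles (SD, n = 3 each). The log2 fold changes on this list ran from -1.65 to 1.04, so its largest change was a fall. The median gene model of this list is 1736.5 bases, against 3897 for the 41 genes and 3513.5 for all genes tested. Ribosomal protein genes have many near-identical copies in the genome, so single values are uncertain.

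**Figure D5:**
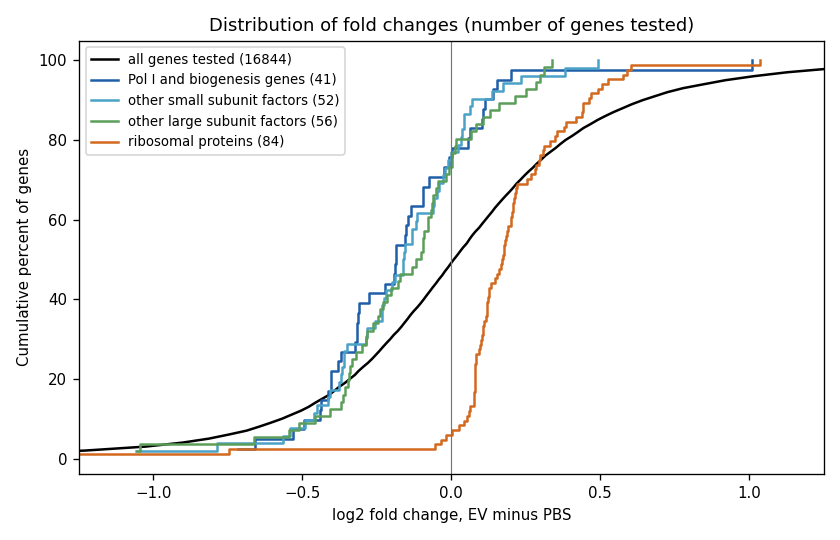
Cumulative percent of genes against the log2 fold change, EV_Tm minus PBS_Tm, for all 16844 genes tested, the 41 genes, 52 other small subunit factors, 56 other large subunit factors and 84 ribosomal protein genes. The curves of the 3 groups of assembly genes run to the left of that for all genes around the middle (medians -0.19, -0.16 and -0.11), and the curve of the ribosomal proteins to the right (median 0.17).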

How the data were processed

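Per the labels' protocols the reads were cleaned and aligned by HISAT2 2.2.1, and the submitters' processing notes name featureCounts 2.0.6. Each of the 6 samples has 1 column of raw counts in the deposited table, with no scaling by the authors; gene start, end and length in bases are other values of the deposited table. How strand and multi-mapped reads were handled is not given in the sources used here. The notes name mm39, but 98.3% of 54409 gene IDs shared with GENCODE M21 have the start and end of GRCm38, so coordinates are read as GRCm38.

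Groups came from the sample titles. The test of EV_Tm against PBS_Tm used edgeR 4.0.16 under R 4.3.3 (TMM, filterByExpr, quasi-likelihood F test, two-sided, Benjamini-Hochberg over 16844 genes, threshold 0.05). It was also tried on simulated data with 200 genes changed. In the real data 7976 genes were called, so that trial cannot speak for changes as widespread as these. CPM uses TMM-scaled library sizes, except in the marker sums. SE is the absolute log2 fold change divided by the square root of F. Libraries of one group differed by more than sampling noise (mean chi-square per gene 3.59 to 7.22), so all 6 were kept.

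The genes and lists were chosen with earlier results of these data known. Values in every sample are given for Myc and, in each role group, for up to 3 called genes with the largest absolute fold change and the gene with the highest level per length; from each list outside the 41, up to 3 called genes are named. Genes shown in full beyond this, and the list of ribosomal proteins, were picked with their values known. Alternatives were DESeq2 size factors, library size alone, no filter, at least 1 CPM in 3 libraries, DESeq2 1.42.0, limma-voom (limma 3.58.1), a block for the replicate number, each library left out in turn, an adjusted p under 0.01 and protein-coding genes only.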

Additional observations from a re-analysis of the deposited data

How the results depend on the processing

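Over 15 alternatives the number of the 41 genes called lower stayed between 21 and 27 and the number called higher between 4 and 6, and the median log2 fold change stayed between -0.21 and -0.15. Myc passed in none of them. Of the 30 genes called, 24 (20 lower, 4 higher) were called in the same direction under every alternative; Polr1c, Gar1, Dkc1, Wdr12, Gnl3 and Nle1 lost the call under at least one, and Taf1d, Nhp2, Nolc1 and Npm1 gained one. No call changed sign. At an adjusted p under 0.01 Polr1c, Dkc1, Wdr12 and Nle1 were lost. The number of genes of the nuclear exosome list called higher went from 1 to 2 with library size alone, without PBS_Tm replicate 3 and with protein-coding genes only, and the snoRNP assembly genes called lower went from 5 to 2 with protein-coding genes only or an adjusted p under 0.01. With the replicate block 7737 genes were called against 7976, and among the 41 genes 24 were lower and 4 higher. No sign of pairing by replicate number was seen: the correlations of same-numbered deviations were -0.04, 0.02 and -0.01, and 1 of 3 libraries in each group correlated best with its own number. Correlations of these deviations from the group mean, for any 2 libraries across the groups, lay between -0.04 and 0.04. This check therefore could not exclude a pairing. Nle1, with 373 counts in its lowest library, the fewest of the 41 genes, had the largest SE of them, 0.11 on the log2 scale, and the part of depth in the calls was not tested.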

Other observations

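Several of the 41 genes carry snoRNA genes inside them. Of the snoRNA genes in GENCODE M21 that lie within one of them, 16, in 5 host genes, had their whole length inside exons of the host, and all 16 were listed at 0 counts in all 6 libraries. Another 11, in 6 hosts, shared no exon base with the host and had between 1 and 163 counts over the 6 libraries. The remaining 2 lay partly inside exons and were also listed at 0. Snord11, in an intron of Nop58, had 124 counts, while Snord57, Snord69 and Snora75, inside exons of Nop56, Gnl3 and Ncl, had 0. The number of reads shared between a host and its snoRNA gene was not tested.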
